A study of Mus musculus with 3 samples.

Results

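One RNA-seq library of the CUMS oe-circ group was compared with one of the CUMS oe-pep group, gene by gene and without the vehicle library as a reference. The genes compared were protein-coding and averaged 20 reads or more across the 3 libraries of the series, and these were 13309 of 22046 protein-coding genes and of 54532 annotated genes in all. Both libraries were made from prelimbic cortex (PrL) of male C57BL/6J mice, 6 to 8 weeks old when purchased, that had received an adeno-associated virus (AAV/9) in the PrL of both hemispheres and then 5 weeks of chronic unpredictable mild stress (CUMS), a changing series of mild stressors. The CUMS oe-circ mice received rAAV-hSyn-circFKBP8-bGH-polyA-CMV-EGFP, which makes the human circular RNA circFKBP8(5S,6), and the CUMS oe-pep mice received an rAAV in which hSyn drives the peptide with a 3×Flag tag, then P2A-EGFP and the hGH polyA, so that the protein cFKBP8 is made from a linear RNA. The CUMS vehicle mice, whose library served only to choose the genes, received rAAV-hSyn-bGH-polyA-CMV-EGFP and the same stress. How many mice contributed to a library is not given in the sources used here, and each group had 1 library, so no difference below has a replicate check, no p-value was computed, and every interval covers counting error only.

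A circular RNA is a closed loop that forms when the end of an exon is joined back to the start of an upstream one. Some circles carry an open reading frame and are translated without a cap. The circle therefore brings a closed RNA together with its protein, whereas the peptide vector brings the protein without the loop, and the comparison of the 2 libraries addresses what differs between these conditions. The circle insert was 391 bases long and the peptide insert 447 bases, of which 381 bases equalled the circle read from base 80 across its junction, and the remaining 66 bases followed them. The hSyn promoter restricts both inserts to neurons, while EGFP is driven by the CMV promoter in the oe-circ vector and is made from the same transcript as the protein in the oe-pep vector. The vectors thus differed in more than the shape of the RNA, and these differences cannot be told apart. The inserts are human sequence and have no entry of their own in the mouse table, so the table holds no check of them. Whether reads of the inserts were counted under the mouse gene Fkbp8 was not tested. The mouse gene Fkbp8 (chr8:70527724-70535328, mm10), which encodes a mitochondrial FK506-binding protein, had 78.0 FPKM in the oe-circ library and 77.2 FPKM in the oe-pep library, a ratio of 1.01 (95% interval 0.972 to 1.05).

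The oe-circ library held 14413544 reads in genes and the oe-pep library 16410635, which was 1.14 times as many. Numbers of reads given below are raw and not scaled to this depth, unlike FPKM, ratios and fold changes. One read per kilobase of gene equalled 0.0687 FPKM (fragments per kilobase of gene, scaled to the depth of the library) in the oe-circ library and 0.0597 FPKM in the oe-pep library. The genes compared held 97.6% of the reads of the oe-circ library and 97.5% of those of the oe-pep library, and 0 of them were without a read in either. Mitochondrial genes took 16.4% of the summed FPKM in the oe-circ library and 17.0% in the oe-pep library, and hemoglobin genes took 0.109% in the oe-circ library and 0.140% in the oe-pep library. Markers of cortical excitatory neurons were abundant in both, and none of the upper-layer, layer 5 or layer 6 markers was past 2-fold between them. Slc17a7, the vesicular glutamate transporter of cortical neurons, had 277 FPKM in the oe-circ library and 253 FPKM in the oe-pep library, and Camk2a, a kinase of excitatory synapses, had 457 FPKM in oe-circ and 417 FPKM in oe-pep.

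Fold changes below are the oe-circ library over the oe-pep library as log2 of FPKM + 0.1, where the added 0.1 shrinks the fold of weakly expressed genes. The median over the 13309 genes was 0.01, and 95.1% of them lay within 1.5-fold. More than 2-fold higher in oe-circ were 35 genes (0.263%), and more than 2-fold lower were 107 genes (0.804%). At 1.5-fold these numbers were 191 (1.44%) and 464 (3.49%). Most of the genes past 2-fold were weakly expressed, since 33 of the 35 higher and 76 of the 107 lower genes had a mean of under 100 reads. With the requirement that the whole 95% interval of the ratio of reads lie past 2-fold, 6 genes were higher and 32 lower. Of the 32, 14 were genes of striatal projection neurons, 4 were genes of basal forebrain cholinergic neurons and 14 were in none of the 27 gene lists described below. The lists do not hold every gene of a cell type, so absence from them does not place a gene outside those cell types. Of the 6, 0 were in a list and 4 had a near-identical copy elsewhere in the genome.

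**Figure D1:**
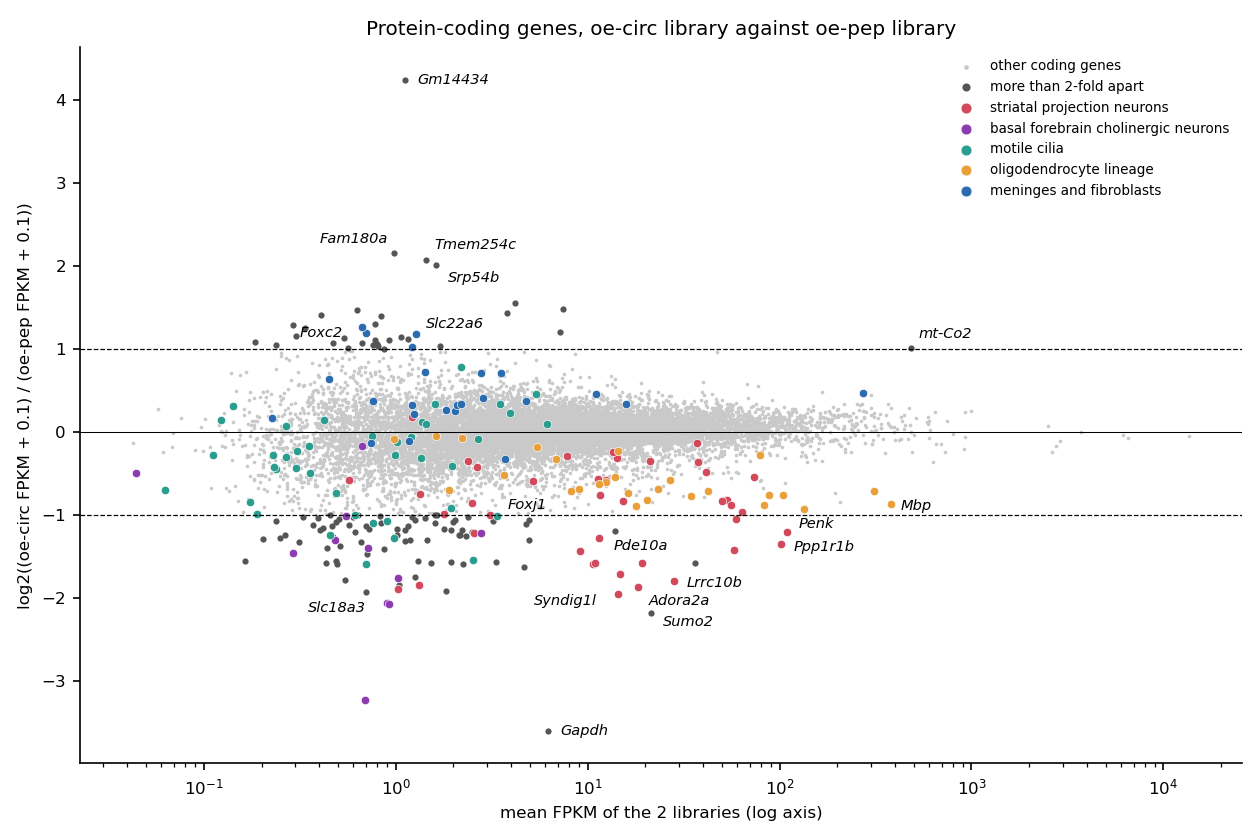
Each point is a protein-coding gene, with its mean FPKM over both libraries on a log axis and its log2 fold change of oe-circ over oe-pep, and dashed lines mark 2-fold. Striatal genes (red) and cholinergic genes (purple) lie mostly below 0, the strongly expressed myelin genes (orange) lie between 0 and the lower line, and the 35 genes above the upper line are weakly expressed except mt-Co2.

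Promoters of the genes past 2-fold were searched for 2 motifs, to show what the sequences before such genes hold. The windows were those of RefSeq (GRCm38.p6), 250 bases before to 50 bases after a gene's start, and both strands were read. The first was the cyclic AMP response element TGACGTCA, bound by CREB factors, which dopamine and adenosine receptors reach through cyclic AMP. The second was the X-box, bound by the RFX factors of ciliated cells. A window was given for 78 of the 107 lower genes and 20 of the 35 higher genes. The response element was in 2 of the 78 (2.56%), Gpr6 and Fam71e1, in 0 of the 20, and in 375 of 10413 windows of all genes compared (3.60%). The X-box was in 1 of the 78 (1.28%), Six3, in 0 of the 20, and in 44 of the 10413 (0.423%). Among the cilia genes 0 of 36 windows held the X-box, and among the striatal genes 1 of 29 (3.45%) held the response element. The windows of Gpr6 (chr10:41072241-41072540, minus strand) and Six3 (chr17:85620584-85620883, plus strand) are printed because they carry these matches, which start 78 and 121 bases before the gene's start and are in capitals. A match describes letters and not binding, and each window held 1 of the 2 motifs.
Gpr6 promoter: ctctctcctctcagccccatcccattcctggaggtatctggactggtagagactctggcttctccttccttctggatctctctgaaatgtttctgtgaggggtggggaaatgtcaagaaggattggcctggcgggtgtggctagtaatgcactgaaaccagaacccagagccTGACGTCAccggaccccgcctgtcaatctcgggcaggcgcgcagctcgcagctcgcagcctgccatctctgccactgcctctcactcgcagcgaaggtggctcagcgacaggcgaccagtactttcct
Six3 promoter: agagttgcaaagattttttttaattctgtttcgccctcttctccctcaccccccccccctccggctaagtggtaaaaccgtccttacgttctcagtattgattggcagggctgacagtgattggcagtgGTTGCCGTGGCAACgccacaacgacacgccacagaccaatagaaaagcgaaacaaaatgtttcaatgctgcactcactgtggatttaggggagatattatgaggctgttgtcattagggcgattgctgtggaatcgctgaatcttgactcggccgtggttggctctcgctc

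The genes that the oe-circ library had at higher levels were few and had little in common by list, with 5 of 35 in any list. Among those without a near-identical copy, Fam180a (chr6:35312668-35326141) stood farthest apart, with 39 reads in the oe-circ library against 8 in the oe-pep library. These were 1.67 FPKM in oe-circ and 0.297 FPKM in oe-pep, a ratio of 5.61 (interval 2.59 to 13.9). Tnnc1 (chr14:31208312-31211729), the troponin C of heart and slow skeletal muscle, had 95 reads (6.27 FPKM) in the oe-circ library and 36 reads (2.06 FPKM) in the oe-pep library, which was 3.04-fold higher (2.05 to 4.59). Ucp3, a mitochondrial carrier of muscle, had 44 reads in the oe-circ library and 15 in the oe-pep library. Prg4, which encodes the joint lubricant lubricin, had 79 reads in oe-circ and 30 reads in oe-pep. Fam180a and Tnnc1 were the only genes without a near-identical copy whose whole interval lay above 2-fold. The ratios of Ucp3 and Prg4 were 3.38 (1.84 to 6.53) and 3.03 (1.97 to 4.78).

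The other higher genes without a copy were of mixed kinds. Ido2, an enzyme of tryptophan breakdown, had 24 reads in the oe-circ library and 9 in the oe-pep library, and its relative Ido1 went the other way, with 10 reads in the oe-circ library and 51 in the oe-pep library. Ido1 belongs to the list of striatal projection neurons described below, most of whose genes were lower in oe-circ. Oas1c, of the 2′-5′ oligoadenylate synthase family, had 27 reads in the oe-circ library and 12 in the oe-pep library. Slc27a2, an enzyme that activates very long-chain fatty acids, had 61 reads in oe-circ and 31 reads in oe-pep, and Cdhr1, a cadherin of photoreceptors, had 102 in oe-circ and 50 in oe-pep. The transcription factor genes Foxf1 and Hlx had 33 and 26 reads in the oe-circ library, against 16 and 13 in the oe-pep library. Ido2, Oas1c, Slc27a2, Cdhr1, Foxf1 and Hlx lay between 2.27-fold and 3.07-fold by the ratio of reads, and the lower bounds of their intervals lay between 1.14 and 1.66. Ido2, Oas1c and Hlx averaged under 20 reads over these 2 libraries and were compared only because of their reads in the vehicle library.

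The one list that held several higher genes was that of meninges and fibroblasts, the cells that cover the brain and line its large vessels. Of its 25 genes 24 were measured, and 4 were more than 2-fold higher in oe-circ and 0 lower, with 8 and 0 at 1.5-fold. Over all genes compared 0.263% were more than 2-fold higher, and in the fifth with the fewest reads 1.28%. The median log2 fold change was 0.37, against 0.01 over all genes, and 9 of the 24 intervals held a ratio of 1. Foxc2 (chr8:121116171-121118895), a forkhead factor of mesenchyme, had 0.984 FPKM in the oe-circ library and 0.351 FPKM in the oe-pep library. Slc22a6, an organic anion transporter, had 106 reads (1.81 FPKM) in the oe-circ library and 50 reads (0.742 FPKM) in the oe-pep library. Slc47a1, which extrudes organic cations, had 50 reads in oe-circ and 22 reads in oe-pep, and Crabp2, a carrier of retinoic acid, had 32 in oe-circ and 17 in oe-pep. The ratios of these genes lay between 2.17 and 2.81, and all 4 rest on few reads.

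The abundant genes of the same list differed by less. Ptgds, prostaglandin D synthase and the most abundant gene of the list, had 315 FPKM in the oe-circ library and 228 FPKM in the oe-pep library, a log2 fold change of 0.47. The small proteoglycans Dcn, Ogn and Fmod had 1.80, 3.48 and 4.43 FPKM in the oe-circ library, against 1.05, 2.09 and 2.67 FPKM in the oe-pep library. The fibrillar collagens did not share this direction throughout, since Col1a1 had 1.13 FPKM in the oe-circ library and 1.23 FPKM in the oe-pep library, while Col1a2 had 1.35 FPKM in oe-circ and 1.15 FPKM in oe-pep. Aebp1, which encodes a secreted matrix protein, was the lowest of the list, with 3.27 FPKM in the oe-circ library and 4.13 FPKM in the oe-pep library, a ratio of 0.791 (0.655 to 0.953). In all 21 genes of the list had values above 0 and 3 below. Collagens and proteoglycans as a group had a median of 0.25, transporters, enzymes and secreted factors one of 0.37, and the 4 transcription factors one of 0.51.

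Genes of striatal projection neurons made up the largest block on the side of the oe-pep library. These neurons form most of the striatum, which lies below the prefrontal cortex, receive dopamine and glutamate, and send their output through a direct pathway marked by the D1 receptor and an indirect pathway marked by the D2 receptor. All 42 genes of the list were measured. Of these 18 were more than 2-fold lower in oe-circ and 0 higher, 28 were lower at 1.5-fold, and 41 of 42 had values below 0. Over all genes compared 0.804% were more than 2-fold lower and 3.49% more than 1.5-fold lower. The median log2 fold change was -0.87, the summed FPKM was 685 in the oe-circ library and 1338 in the oe-pep library, and 2 of the 42 intervals held a ratio of 1. The tissue was measured in bulk, so fewer cells of a type and less RNA per cell cannot be told apart here or in the lists below. How far the dissected tissue of either library reached toward the striatum was not tested.

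Among the indirect-pathway genes 4 of 5 were more than 2-fold lower in oe-circ, with a median of -1.43. Adora2a (chr10:75316877-75334784), the adenosine A2A receptor, had 349 reads (7.83 FPKM) in the oe-circ library and 1476 reads (28.8 FPKM) in the oe-pep library, which was 3.67-fold lower (3.27 to 4.14). Drd2 (chr9:49340627-49408177), the dopamine D2 receptor, had 6.83 FPKM in the oe-circ library and 22.6 FPKM in the oe-pep library, 3.31-fold lower (2.88 to 3.81). Penk, the precursor of the enkephalins, was far more abundant, with 65.5 FPKM in the oe-circ library and 152 FPKM in the oe-pep library, 2.32-fold lower (2.19 to 2.46). Gpr6, an orphan receptor that raises cyclic AMP, had 4.89 FPKM in oe-circ and 13.4 FPKM in oe-pep. Sp9, a zinc-finger factor needed for the formation of these neurons, had 2.26 FPKM in the oe-circ library and 3.07 FPKM in the oe-pep library and lay within 1.5-fold.

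The direct-pathway genes had 2 of 7 past 2-fold and a median of -0.58, with values from -1.28 to 0.18. Drd1 (chr13:54051183-54055705), the dopamine D1 receptor, had 350 reads (6.63 FPKM) in the oe-circ library and 988 reads (16.3 FPKM) in the oe-pep library, which was 2.45-fold lower (2.17 to 2.78). Isl1, a LIM homeobox factor shared with cholinergic neurons, had 19 reads in oe-circ and 51 reads in oe-pep. Tac1, the precursor of substance P, had 8.53 FPKM in the oe-circ library and 14.6 FPKM in the oe-pep library. Pdyn, the precursor of the dynorphins, had 12.7 FPKM in oe-circ and 15.8 FPKM in oe-pep, and the muscarinic receptor gene Chrm4 had 18.6 FPKM in oe-circ and 23.7 FPKM in oe-pep. Eya1 was the gene of the whole list with a value above 0, with 1.29 FPKM in the oe-circ library and 1.13 FPKM in the oe-pep library. Pdyn, Chrm4 and Eya1 are also expressed outside the striatum, and the difference between both pathways was not tested.

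Genes common to both pathways had 12 of 30 past 2-fold and a median of -0.87. Ppp1r1b (chr11:98348404-98357796), which encodes DARPP-32, the phosphatase inhibitor through which dopamine receptors act, had 2446 reads (57.4 FPKM) in the oe-circ library and 7214 reads (147 FPKM) in the oe-pep library, which was 2.56-fold lower (2.45 to 2.68). Syndig1l (chr12:84677277-84698831), a relative of the AMPA receptor partner Syndig1, was farthest apart, with 5.82 FPKM in the oe-circ library and 22.9 FPKM in the oe-pep library, 3.93-fold lower (3.43 to 4.51). The striatal phosphodiesterase Pde10a (chr17:8525372-8986648) had 9.63 FPKM in oe-circ and 28.9 FPKM in oe-pep. Rgs9, which shortens G protein signals, had 5.26 FPKM in oe-circ and 16.1 FPKM in oe-pep. Lrrc10b had 12.5 FPKM in the oe-circ library and 43.7 FPKM in the oe-pep library, and the retinoid receptor Rxrg had 5.42 FPKM in oe-circ and 16.4 FPKM in oe-pep. Scn4b, a sodium channel subunit, was close to the threshold, with 38.7 FPKM in oe-circ and 80.3 FPKM in oe-pep, and 2.07-fold lower (1.98 to 2.17).

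Other genes of the same list differed by less. Adcy5, the main adenylyl cyclase of the striatum, had 39.1 FPKM in the oe-circ library and 72.2 FPKM in the oe-pep library, and Bcl11b, a factor of striatal and deep cortical neurons, had 10.9 FPKM in oe-circ and 19.6 FPKM in oe-pep. Ptpn5, a striatum-enriched tyrosine phosphatase, had 32.8 FPKM in the oe-circ library and 42.1 FPKM in the oe-pep library. Kcnip2, a potassium channel partner, had 35.5 FPKM in oe-circ and 39.0 FPKM in oe-pep, and Meis2 had 12.4 FPKM in oe-circ and 14.6 FPKM in oe-pep. These genes spanned log2 fold changes from -0.14 for Kcnip2 to -0.88 for Adcy5.

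**Figure D2:**
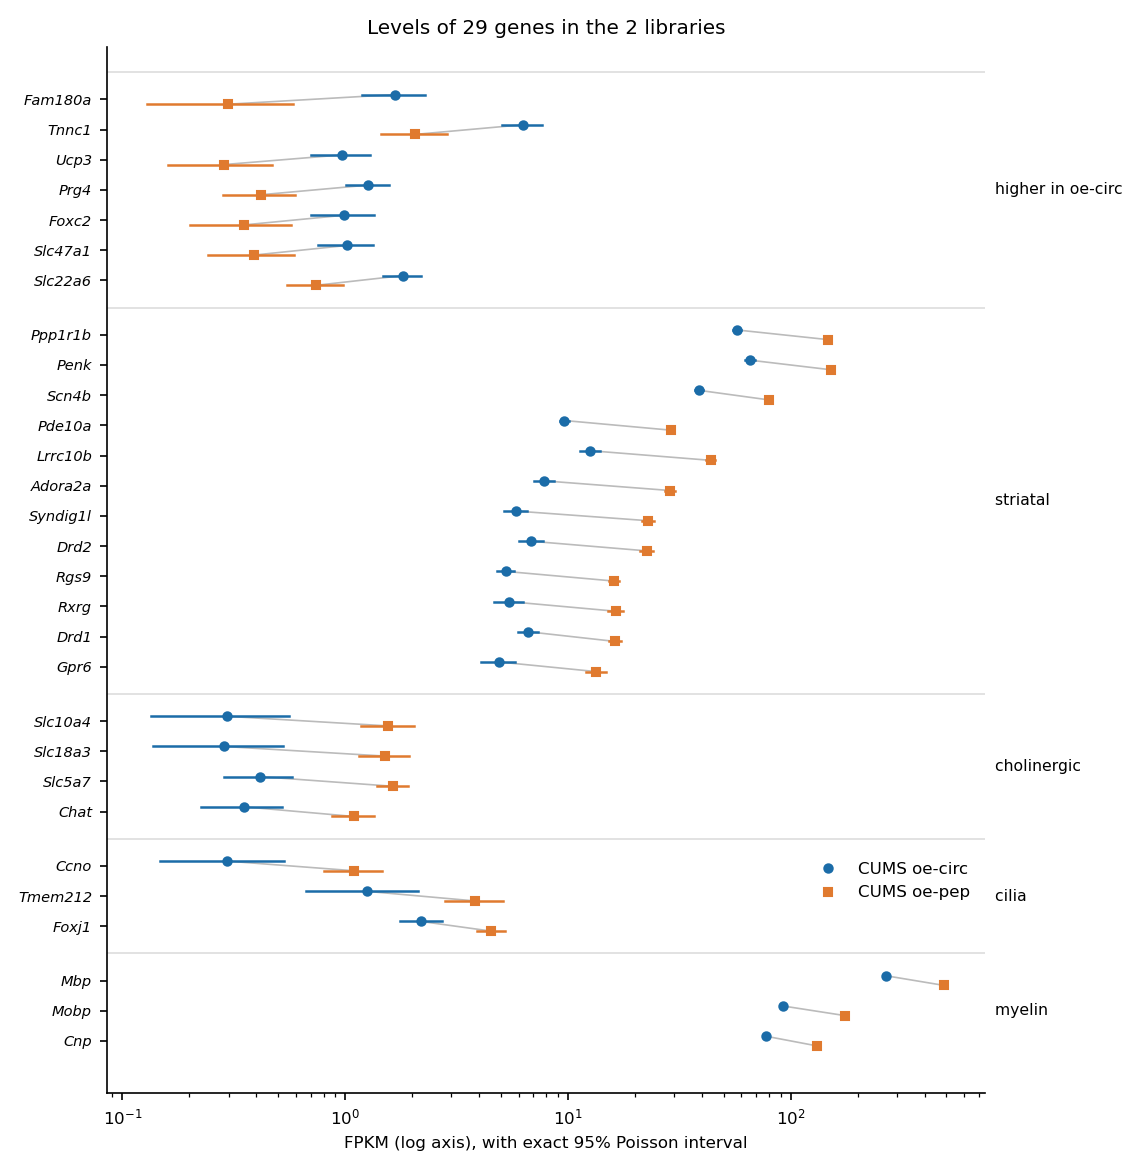
Each row is a gene, with its FPKM in the CUMS oe-circ library (circles) and in the CUMS oe-pep library (squares) on a log axis and exact 95% Poisson intervals as bars. The bars of both libraries do not overlap for Adora2a (7.83 FPKM in oe-circ and 28.8 FPKM in oe-pep) and Mbp (269 FPKM in oe-circ and 489 FPKM in oe-pep), and they are widest for genes of few reads such as Slc18a3 (10 reads in oe-circ and 61 in oe-pep).

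Cholinergic genes of the basal forebrain were expressed at low levels and were mostly lower in oe-circ. These neurons make acetylcholine for the cortex, and a few interneurons of the striatum use the same genes. Of the 13 genes of the list 11 were measured. Of these 9 were more than 2-fold lower in oe-circ, against 0.804% of all genes compared, and 0 higher, with a median of -1.40. With a pseudocount of 1 this median was -0.63, above that of the striatal genes at -0.78, so the order of both lists depends on the pseudocount. The 4 genes that make, load or recover acetylcholine, or accompany its vesicles, were all past 2-fold. Chat, choline acetyltransferase, had 24 reads in the oe-circ library and 86 in the oe-pep library. Slc18a3 (chr14:32462438-32464850), the vesicular acetylcholine transporter, had 10 reads in oe-circ and 61 reads in oe-pep, and was 5.30-fold lower (2.69 to 11.6). Slc5a7, the choline transporter of their terminals, had 34 reads in the oe-circ library and 155 in the oe-pep library, and Slc10a4, a vesicle protein of cholinergic and monoamine neurons, had 9 in oe-circ and 55 in oe-pep. Slc10a4 has a near-identical copy, with 0 reads in the oe-circ library and 3 in the oe-pep library, which leaves its fold almost as it was.

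The other measured genes of the list included Ngfr, the low-affinity neurotrophin receptor, which other cells also express and which had 31 reads in the oe-circ library and 41 in the oe-pep library. Lhx8, the LIM factor that specifies cholinergic neurons, had 4 reads in oe-circ and 20 reads in oe-pep, and Ecel1, a membrane peptidase, had 83 in oe-circ and 231 in oe-pep. The neurokinin receptor Tacr3 had 13 reads in the oe-circ library and 46 in the oe-pep library. Gbx1 had 1 read in the oe-circ library and 4 in the oe-pep library. Gbx1 and Lhx8 averaged under 20 reads over these 2 libraries and were compared only because of their reads in the vehicle library. Lhx8 is among the genes of the list past 2-fold. The 2 genes of the list with under 20 reads, Gbx2 and Prph, held 14 reads together in either library.

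Genes of the septum, the preoptic area and the hypothalamus had 2 of 15 measured genes past 2-fold lower and 0 higher, with a median of -0.39. The share past 2-fold lower was 0.804% over all genes compared and 2.96% in the fifth with the fewest reads. Trh, from which thyrotropin-releasing hormone is cut, had 8 reads in the oe-circ library and 39 in the oe-pep library, and the orphan receptor Gpr101 had 6 in oe-circ and 30 in oe-pep. The 7 measured transcription factors of the list, among them Zic1 with 3.05 FPKM in the oe-circ library and 4.39 FPKM in the oe-pep library, all had values below 0 and none was past 2-fold. Nkx2-1, which marks the ventral forebrain, had 9 reads in the oe-circ library and 24 in the oe-pep library. Gpr101 and Nkx2-1 averaged under 20 reads over these 2 libraries and were compared only because of their reads in the vehicle library. The 2 transcription factors of the list with under 20 reads were near absent. Otp had 1 read in oe-circ and 2 in oe-pep, and Sim1 had 0 in oe-circ and 0 in oe-pep. Hap1, of the same list, was more abundant, with 22.2 FPKM in the oe-circ library and 24.4 FPKM in the oe-pep library. The 8 genes of the list with under 20 reads summed to 25 reads in the oe-circ library and 57 in the oe-pep library.

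Oligodendrocyte genes all lay below 0, with a lower median for mature cells than for precursors. Oligodendrocytes wrap axons in myelin, which is densest in white matter and deep cortical layers. All 27 genes were measured and all had values below 0, 0 were past 2-fold, and 17 were more than 1.5-fold lower in oe-circ, with a median of -0.69. For 3 of the 27 the interval held a ratio of 1, and over all genes compared 3.49% were more than 1.5-fold lower. The 17 genes of mature cells lay between -0.93 and -0.52, with a median of -0.72. Mbp, a main protein of myelin, had 269 FPKM in the oe-circ library and 489 FPKM in the oe-pep library, 1.82-fold lower (1.80 to 1.85). Mobp was farthest apart with 92.4 FPKM in the oe-circ library and 176 FPKM in the oe-pep library, and Cnp, a phosphodiesterase of myelin, had 77.2 FPKM in oe-circ and 131 FPKM in oe-pep.

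The precursors of these cells differed little. The 6 precursor genes had a median of -0.13, and Pdgfra, the growth factor receptor that marks them, had 5.09 FPKM in the oe-circ library and 5.77 FPKM in the oe-pep library. Cspg4, the NG2 proteoglycan, had 2.17 FPKM in oe-circ and 2.29 FPKM in oe-pep. Enpp6, which marks cells that have begun to mature, had 1.43 FPKM in the oe-circ library and 2.37 FPKM in the oe-pep library. Among the transcription factors, Olig1 and Olig2, which precursors and mature cells share, had log2 fold changes of -0.28 and -0.23, whereas Myrf and Sox10 had -0.72 and -0.82.

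Cortical excitatory neurons as a list lay near the background, with 0 of 27 genes past 2-fold, 0 and 2 past 1.5-fold higher and lower, and a median of 0.13. Split by layer, the 7 genes of the upper layers all had values above 0, with a median of 0.36, the 6 genes of layer 5 had a median of 0.04, and the 6 genes of layer 6 all had values below 0, with a median of -0.30. Rasgrf2, an exchange factor of upper-layer cells, had 22.9 FPKM in the oe-circ library and 15.2 FPKM in the oe-pep library, and Cux2, which marks the same layers, had 10.4 FPKM in oe-circ and 8.03 FPKM in oe-pep. Fezf2, which specifies layer 5 output neurons, had 503 reads in the oe-circ library and 559 in the oe-pep library, slightly higher in oe-circ when scaled to depth. Syt6, a marker of layer 6, had 4.76 FPKM in oe-circ and 8.26 FPKM in oe-pep, and Nxph4, another, had 50 reads in the oe-circ library and 98 in the oe-pep library.

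Cortical interneurons had a median of 0.24, with 0 of 22 genes past 2-fold higher and 1 lower. Of the 3 genes for GABA itself, Gad1 had 50.8 FPKM in the oe-circ library and 52.7 FPKM in the oe-pep library. Gad2 and Slc32a1 had 31.2 and 37.3 FPKM in the oe-circ library, against 38.3 and 45.3 FPKM in the oe-pep library. Striatal projection neurons use these genes too. The subtype peptides had a median of 0.50. Vip had 16.3 FPKM in the oe-circ library and 10.1 FPKM in the oe-pep library, and Cck, which excitatory cells also express, had 344 FPKM in oe-circ and 252 FPKM in oe-pep. Sst had 321 FPKM in the oe-circ library and 328 FPKM in the oe-pep library. Tac2, with 108 reads in oe-circ and 69 reads in oe-pep, was the largest of the list at 0.83. The gene past 2-fold was Sncg, a synuclein, with 16 reads in the oe-circ library and 40 in the oe-pep library.

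**Figure D3:**
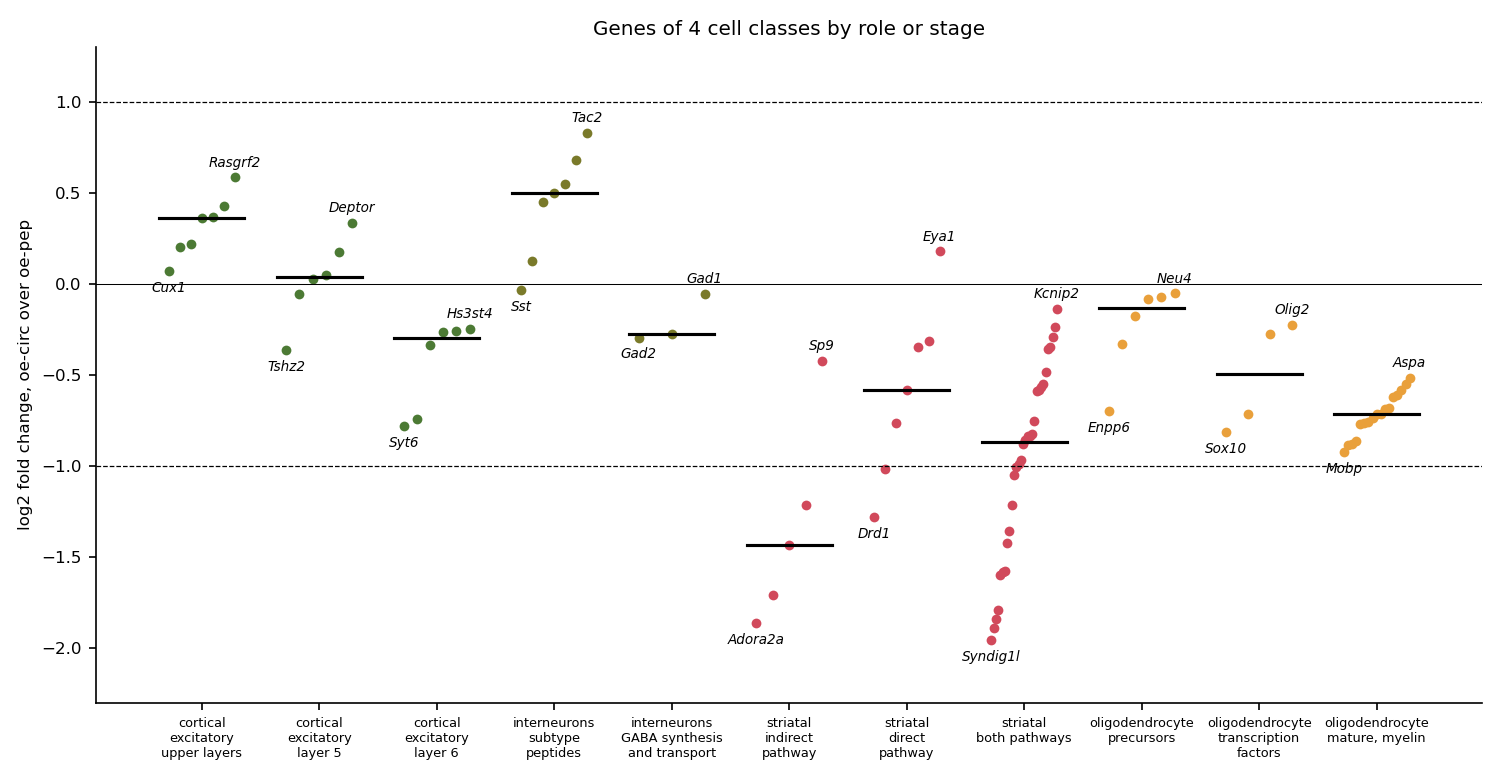
Points are genes of cortical excitatory neurons, interneurons, striatal neurons and oligodendrocytes, split by layer, role or stage, with the log2 fold change of oe-circ over oe-pep on the vertical axis, group medians as bars and the lowest and highest gene named. Upper-layer genes lie above 0 (median 0.36), layer 6 genes below 0 (-0.30), the indirect-pathway genes reach -1.86 for Adora2a, and mature oligodendrocyte genes (-0.72) lie below precursor genes (-0.13).

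Genes of motile cilia, the beating cilia of the ependymal cells that line the ventricles, were weakly expressed and mixed. Of 56 genes 41 were measured, with 7 past 2-fold lower in oe-circ and 0 higher, and a median of -0.28. Over all genes compared 0.804% were past 2-fold lower, and in the fifth with the fewest reads 2.96%. For 23 of the 41 the interval held a ratio of 1, and genes that averaged 100 reads or more had a median of 0.10, so the sign of the median rested on the genes of few reads. Foxj1 (chr11:116330704-116335399), the master factor of motile cilia, had 84 reads (2.20 FPKM) in the oe-circ library and 199 reads (4.53 FPKM) in the oe-pep library, 2.06-fold lower (1.59 to 2.69). Ccno, needed to multiply centrioles, had 11 reads in oe-circ and 47 in oe-pep, Tmem212 had 13 in oe-circ and 46 in oe-pep, and the radial spoke gene Rsph4a had 24 in oe-circ and 66 in oe-pep. Of the 41 genes, 29 had values below 0 and 12 above. The axonemal dynein gene Dnah5, with 64 reads in the oe-circ library and 114 in the oe-pep library, was below 0 and within 2-fold, and Rsph9, with 146 in oe-circ and 122 in oe-pep, was above 0. The 15 genes of the list with under 20 reads summed to 115 reads in the oe-circ library and 249 in the oe-pep library.

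Of 14 genes of the choroid plexus, which secretes cerebrospinal fluid, 4 were measured, and 2 were past 2-fold lower in oe-circ, against 0.804% of all genes compared. Ttr, the thyroid hormone carrier that defines this tissue, had 150 reads (8.46 FPKM) in the oe-circ library and 397 reads (19.4 FPKM) in the oe-pep library. Clic6, an ion channel protein, had 19 reads in oe-circ and 65 reads in oe-pep. The other measured genes lay close. Enpp2, the enzyme autotaxin, had 39.1 FPKM in the oe-circ library and 43.5 FPKM in the oe-pep library and made up most of the summed FPKM of the list. Kl, klotho, had 55 reads in oe-circ and 58 in oe-pep, a log2 fold change of 0.10. The 10 genes with under 20 reads summed to 42 reads in the oe-circ library and 86 in the oe-pep library. Red cell genes lay below 0 as well, with Hbb-bs at 147 FPKM in the oe-circ library and 188 FPKM in the oe-pep library, and 0 of the 5 measured blood genes passed 1.5-fold.

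Other cell types had medians close to 0. Astrocyte genes had a median of -0.09 over 19 genes, microglia and macrophage genes one of 0.01 over 17, and genes of endothelium and mural cells one of 0.01 over 19, with 0 genes past 2-fold in each. Gfap, the filament of reactive and white matter astrocytes, was the farthest of the astrocyte genes, with 22.8 FPKM in the oe-circ library and 31.4 FPKM in the oe-pep library. Cx3cr1, the fractalkine receptor of microglia, had 12.7 FPKM in oe-circ and 11.3 FPKM in oe-pep. Cldn5, the tight junction protein of brain vessels, had 52.0 FPKM in the oe-circ library and 48.6 FPKM in the oe-pep library.

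**Figure D4:**
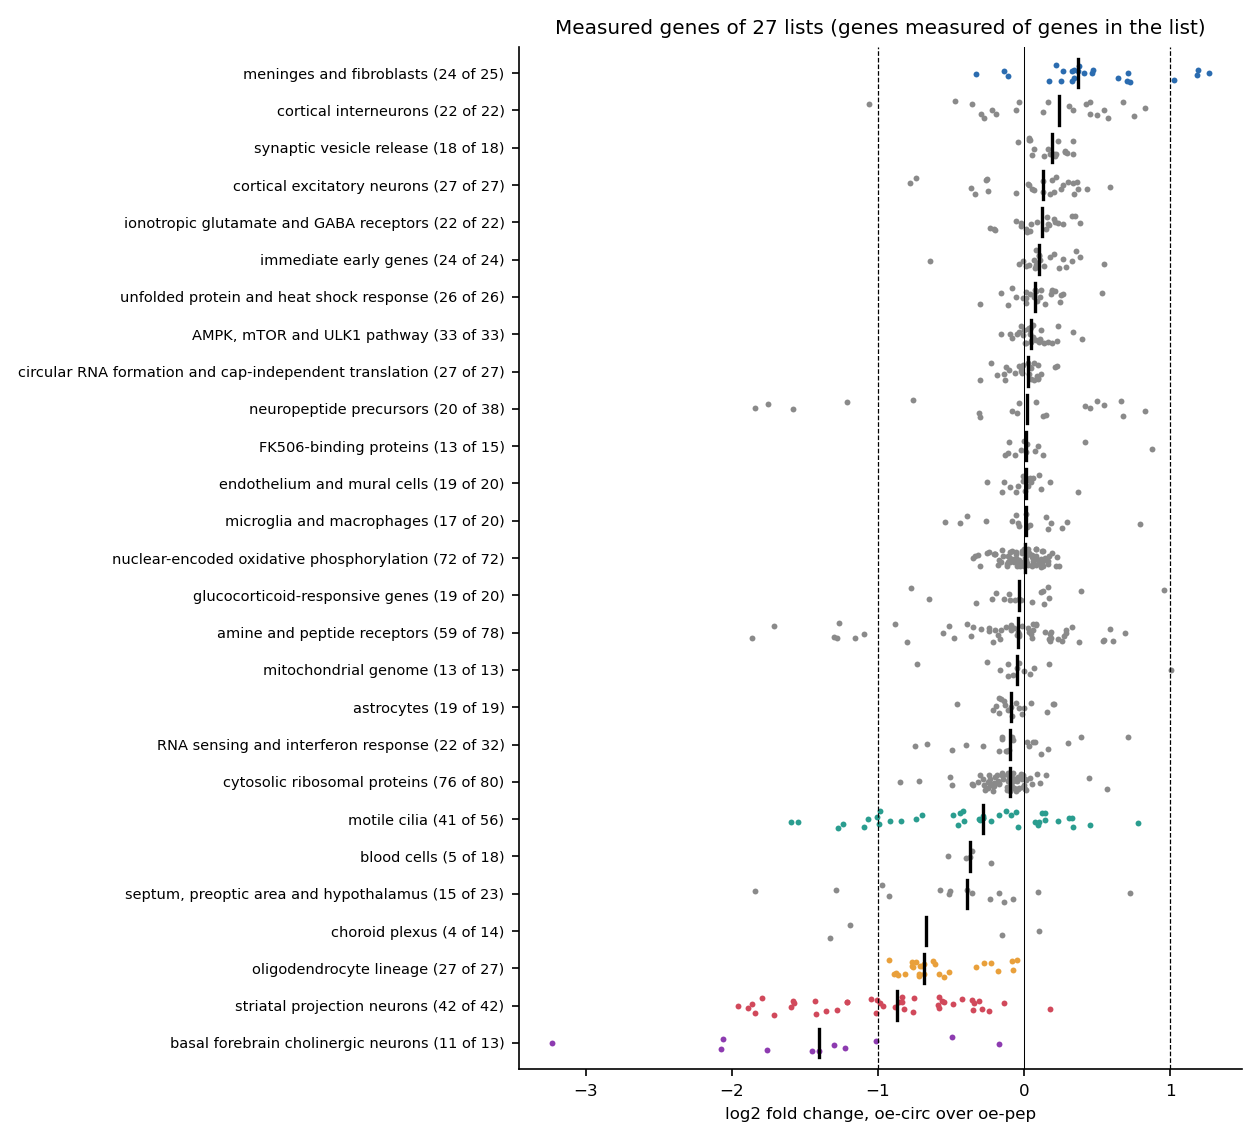
Rows are the 27 gene lists, sorted by median, with a point for the log2 fold change of oe-circ over oe-pep of each measured gene, a bar for the median and dashed lines at 2-fold. Cholinergic (-1.40), striatal (-0.87), oligodendrocyte (-0.69) and choroid plexus genes (-0.67) lie at the bottom. Septum, preoptic area and hypothalamus (-0.39), blood cells (-0.37) and motile cilia (-0.28) follow. Meninges and fibroblasts (0.37) lie at the top, and most other medians lie close to 0.

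Neuropeptide and receptor genes past 2-fold were all on the lower side. For comparison, 0.263% of all genes compared were more than 2-fold higher and 0.804% lower. Of 38 neuropeptide genes 20 were measured, and 4 were more than 2-fold lower in oe-circ and 0 higher, with a median of 0.02 and a mean of -0.18, which differ in sign. Beside Penk and Trh these were Pomc, the precursor of the melanocortins and endorphin, with 10 reads in the oe-circ library and 44 in the oe-pep library, and Nts, neurotensin, with 13 in oe-circ and 49 in oe-pep. Adcyap1, the precursor of PACAP, had 11.2 FPKM in the oe-circ library and 7.06 FPKM in the oe-pep library. Of 78 amine and peptide receptor genes 59 were measured, and 7 were past 2-fold lower and 0 higher, with a median of -0.04. Beside Drd1, Drd2, Adora2a and Tacr3 these were the substance P receptor Tacr1, with 47 reads in oe-circ and 128 in oe-pep, and the serotonin receptors Htr1d, with 11 in oe-circ and 38 in oe-pep, and Htr4, with 15 in oe-circ and 48 in oe-pep.

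Of the dopamine receptor genes, Drd1 and Drd2 are given above among the striatal genes, whose summed FPKM was 685 in the oe-circ library and 1338 in the oe-pep library, and the part of these cells in the values of both receptors was not tested. Drd5, the D1-like receptor of cortical neurons, had 35 reads in the oe-circ library and 23 in the oe-pep library, a ratio of 1.75 (1.01 to 3.10). Drd3 and Drd4 had too few reads to be among the genes compared. Drd3 had 2 reads (0.0803 FPKM) in the oe-circ library and 5 reads (0.174 FPKM) in the oe-pep library, a ratio of 0.46 with an interval of 0.0438 to 2.81, so a difference was not detectable at this depth. Drd4 had 14 reads in oe-circ and 12 reads in oe-pep.

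Genes of energy sensing, RNA sensing and circle formation lay near the background. The 33 genes of the AMPK, mTOR and ULK1 pathway, which switches autophagy on when energy is short, had a median of 0.05 and 0 genes past 1.5-fold in either direction. Prkaa1, a catalytic subunit of AMPK, had 6.85 FPKM in the oe-circ library and 6.11 FPKM in the oe-pep library, and Mtor had 11.3 FPKM in oe-circ and 11.3 FPKM in oe-pep. Ulk1, which starts autophagy, had 15.7 FPKM in the oe-circ library and 16.2 FPKM in the oe-pep library. Becn1 had 10.2 FPKM in oe-circ and 9.74 FPKM in oe-pep, and Sqstm1, the cargo receptor p62, had 138 FPKM in oe-circ and 137 FPKM in oe-pep. The largest difference was that of Atg5, which conjugates LC3 to membranes together with its partners, with 11.2 FPKM in the oe-circ library and 8.50 FPKM in the oe-pep library.

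Of 32 genes of RNA sensing and the interferon response 22 were measured, with 0 past 2-fold, 1 and 2 past 1.5-fold higher and lower, and a median of -0.09. Ifih1, the sensor MDA5 of double-stranded RNA, had 113 reads in the oe-circ library and 119 in the oe-pep library. Eif2ak2, the kinase PKR that circular RNAs can bind, had 60 in oe-circ and 65 in oe-pep. Scaled to depth, Ifih1 and Eif2ak2 were slightly higher in oe-circ. Ddx58, the sensor RIG-I, had 62 reads in the oe-circ library and 98 in the oe-pep library. The 10 unmeasured genes summed to 75 reads in the oe-circ library and 79 in the oe-pep library. The 27 genes of circular RNA formation and cap-independent translation had a median of 0.02 and 0 past 1.5-fold. Qk, a splicing factor that promotes back-splicing and is abundant in oligodendrocytes, was lowest among them, with 23.5 FPKM in the oe-circ library and 28.9 FPKM in the oe-pep library, and the m6A methyltransferase gene Mettl3 had 2.63 FPKM in oe-circ and 2.51 FPKM in oe-pep.

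Of the FK506-binding protein family 13 of 15 genes were measured and 0 were past 2-fold. Fkbp5, the stress-induced co-chaperone of the glucocorticoid receptor, had 3.16 FPKM in the oe-circ library and 3.41 FPKM in the oe-pep library. Fkbp7, of the endoplasmic reticulum, had 40 reads in oe-circ and 24 reads in oe-pep, and was the gene past 1.5-fold. Glucocorticoid-responsive genes had a median of -0.03 over 19 genes, with 0 past 2-fold. Nr3c1, the receptor, had 18.9 FPKM in the oe-circ library and 18.2 FPKM in the oe-pep library, and Sult1a1, a sulfotransferase, was farthest apart with 88 reads in oe-circ and 51 reads in oe-pep.

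Markers of neuronal activity and of synapses were close. Of 24 immediate early genes, which neurons switch on within minutes of firing, 21 had values above 0, with a median of 0.10 and 0 past 2-fold. Fos had 16.5 FPKM in the oe-circ library and 11.3 FPKM in the oe-pep library, and Arc had 74.0 FPKM in oe-circ and 67.4 FPKM in oe-pep. Nr4a2, which also marks deep cortical cells, was the gene past 1.5-fold lower, with 3.79 FPKM in oe-circ and 5.99 FPKM in oe-pep. The 18 genes of synaptic vesicle release had a median of 0.19. Snap25, of the fusion machinery, had 411 FPKM in the oe-circ library and 325 FPKM in the oe-pep library. Ionotropic glutamate and GABA receptor genes had a median of 0.12 over 22 genes, and genes of the unfolded protein and heat shock response one of 0.07 over 26, with 0 past 1.5-fold in either list.

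The genes of oxidative phosphorylation encoded in the nucleus had a median of 0.00 over 72, with 0 past 1.5-fold. Cytosolic ribosomal proteins had a median of -0.10 over 76 of 80, with 65 values below 0 and 2 past 1.5-fold lower. Rpl41 was the farthest of these, with 147 FPKM in the oe-circ library and 264 FPKM in the oe-pep library, a ratio of 0.556. Together with its near-identical copy Gm10076 it had 3044 reads in the oe-circ library and 5242 in the oe-pep library, a ratio of 0.668 (0.639 to 0.699), which is within 1.5-fold. Of the 13 protein genes of the mitochondrial genome, mt-Co2, a subunit of cytochrome oxidase, was 2.01-fold higher with 643 FPKM in the oe-circ library and 320 FPKM in the oe-pep library. Its neighbour in the same complex, mt-Co3, had 145 FPKM in oe-circ and 242 FPKM in oe-pep, and mt-Co1 had 13414 FPKM in the oe-circ library and 13854 FPKM in the oe-pep library. Copies of mt-Co3 were not sought, so its difference is uncertain too. Reads of mt-Co2 can be shared with 2 nuclear copies, and the gene and its copies together had 8886 reads in the oe-circ library and 6286 in the oe-pep library, a ratio of 1.63 (1.58 to 1.68), which is not past 2-fold.

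Of the 107 lower genes 64 were in no list. Since the lists do not hold every gene of a cell type, these may include genes of the cells above, which was not tested. Serpina9 (chr12:103994743-104013755), a serine protease inhibitor, had 38 reads (0.711 FPKM) in the oe-circ library and 182 reads (2.96 FPKM) in the oe-pep library, 4.16-fold lower (2.92 to 6.07). Yjefn3 (chr8:69887788-69902712) was the most abundant of those without a copy, with 18.0 FPKM in the oe-circ library and 54.1 FPKM in the oe-pep library. Cd4, the co-receptor of helper T cells that some brain cells also transcribe, had 63 reads in oe-circ and 232 reads in oe-pep. Slc35d3, of the nucleotide sugar transporter family, had 62 reads in the oe-circ library and 221 in the oe-pep library, the potassium channel gene Kcna5 had 39 in oe-circ and 142 in oe-pep, and the orphan receptor Gpr139 had 14 in oe-circ and 63 in oe-pep. The forebrain homeobox factor Six3 had 49 reads (0.618 FPKM) in the oe-circ library and 183 reads (2.01 FPKM) in the oe-pep library, and Dach1, a nuclear factor of development, had 142 reads in oe-circ and 407 reads in oe-pep.

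Genes with near-identical copies are uncertain, because a read that fits several places may be counted at any of them or left out. Which of these was done was not tested, and a sum over copies does not restore reads that were left out. A copy was sought at 95% identity over at least 50% of a transcript, and 12 of the 35 higher and 8 of the 107 lower genes had one. When the reads of each gene and its copies were summed, 5 of the 20 stayed past 2-fold and 12 lay within 1.5-fold. The extremes of the comparison were both of this kind. Gm14434 (chr2:176473278-176486783), of a repeated gene family, had 89 reads in the oe-circ library and 1 in the oe-pep library, a ratio of 102 (17.9 to 4091), and together with its 9 copies 452 in oe-circ and 469 in oe-pep, a ratio of 1.11 (0.973 to 1.27). Gapdh (chr6:125161715-125166467), the glycolytic enzyme, had 52 reads in the oe-circ library and 804 in the oe-pep library, and together with its 27 copies 1044 in oe-circ and 1746 in oe-pep, a ratio of 0.688 (0.637 to 0.744).

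Other pairs behaved alike. Sumo2, a ubiquitin-like modifier, had 193 reads in the oe-circ library and 1020 in the oe-pep library, whereas its 4 copies held 536 in oe-circ and 140 in oe-pep, so that the sum had a ratio of 0.723 (0.658 to 0.794). Srp54b, of the signal recognition particle, had 174 reads in the oe-circ library and 44 in the oe-pep library, and its sum had a ratio of 1.57 (1.37 to 1.79). Nanp, a sialic acid phosphatase, had 5 reads in oe-circ and 29 reads in oe-pep, and a summed ratio of 1.04. The sums of Pcdha2, Dynlt1c, Eif3j2 and Nutf2-ps1 lay between 1.01 and 1.11. The sum stayed past 2-fold for Tmem254c, at 5.05 (2.73 to 10.1), and for Ap1s3 and Gm14296 on the higher side, and for Slc10a4 and Entpd4b on the lower side.

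**Figure D5:**
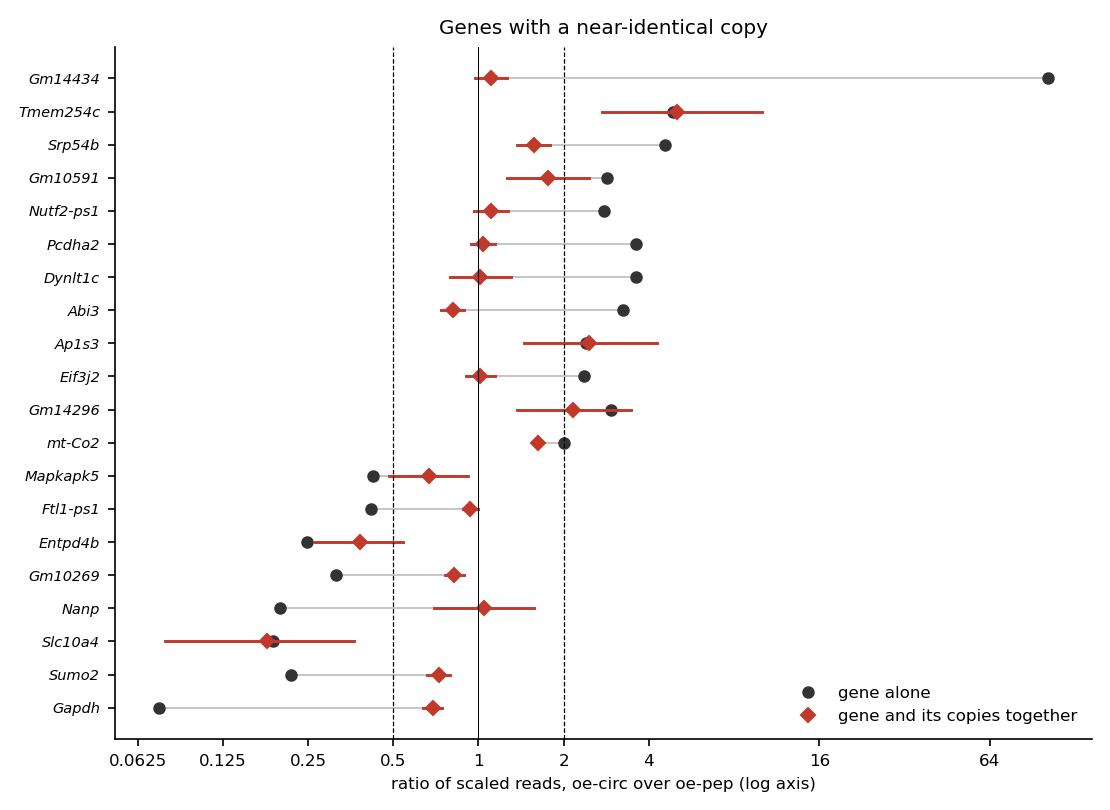
Rows are the 20 genes past 2-fold that have a near-identical copy, with the ratio of scaled reads of oe-circ over oe-pep on a log axis for the gene alone (circles) and for the gene and its copies together (diamonds, with 95% intervals). Most diamonds lie between the dashed 2-fold lines, as for Gm14434 (1.11) and Gapdh (0.688), and Tmem254c (5.05) and Slc10a4 (0.179) stay outside.

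The share of genes past 2-fold differed with depth and gene length. When genes were split into 5 equal bins by reads, in the bin with the fewest, 1.28% were more than 2-fold higher and 2.96% lower, against 0.0376% and 0.188% in the bin with the most. In the shortest of 5 bins by length, of 204 to 2610 bases, 0.714% were higher and 1.84% lower, against 0.0376% and 0.188% in the longest. The numbered chromosomes and X had between 0.241% and 1.79% of their genes on the lower side. Among genes that averaged 100 reads or more, 3 were higher and 37 lower, and with a pseudocount of 1 in place of 0.1, 9 were higher and 26 lower.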

How the data were processed

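Stranded poly(A) RNA-seq of PrL tissue was available as 1 table with 1 library each of the CUMS oe-circ, CUMS oe-pep and CUMS vehicle groups. Per the submitters' processing notes reads were handled with cutadapt 2.5, HISAT2 2.1.0 was the aligner named, featureCounts 1.6.3 the counter, and mm10 the genome build. The values deposited by the authors are FPKM. They were whole multiples of 1 read per gene and library, so whole reads were recovered and protein-coding genes that averaged 20 reads or more across the 3 libraries were kept.

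Fold changes were log2 of (FPKM + 0.1) in oe-circ over oe-pep. Intervals of ratios are exact conditional binomial (Clopper-Pearson) 95% intervals on the recovered reads, and those of FPKM are exact Poisson intervals. With 1 library per group no count model and no test could be run, and the vehicle library was not compared. Genes named are the 15 highest and lowest, also among genes that averaged 200 reads or more, up to 6 of the most abundant genes of each list, all past 2-fold in a list, Fkbp8, the dopamine receptors and the AMPK, mTOR and ULK1 genes; others were chosen after their values were seen. The genes compared and the lists were chosen with earlier results of these data known. Near-identical copies were sought with minimap2 2.31-r1302 among GENCODE vM21 transcripts for 325 genes. Python 3.11.15 with numpy 2.4.6, pandas 2.3.3, scipy 1.17.1 and matplotlib 3.10.9 was used, and the steps were tested on simulated data. Alternatives were other pseudocounts, filters, scalings and biotypes. Some genes counted in the lists are not reported here by name.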

Additional observations from a re-analysis of the deposited data

How the results depend on the processing

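Against 35 genes higher and 107 lower in oe-circ than in oe-pep, a pseudocount of 0.01 gave 59 and 166, one of 1 gave 9 and 26, a mean of at least 100 reads gave 3 and 37, a mean of at least 1 FPKM gave 18 and 70, no filter gave 258 and 423, and whole intervals past 2-fold gave 6 and 32. A mean of at least 20 reads over the 2 compared libraries alone gave 31 and 98. Genes that fell short of it, such as Lhx8, Gpr101 and Nanp, were compared only because of their reads in the vehicle library. Without genes that have near-identical copies, which was added after the data had been seen, 23 stood higher and 99 lower. The median of the motile cilia genes was 0.10 at a mean of at least 100 reads, against -0.28, and the mean of the amine and peptide receptor genes was -0.17, against a median of -0.04, and that of the neuropeptide genes was -0.18, against a median of 0.02. With a pseudocount of 1 the median was -0.63 for the cholinergic genes and -0.78 for the striatal genes, against -1.40 and -0.87. Of the 142 genes past 2-fold, 35 were past it with a pseudocount of 1, and 142 kept their sign. The cause of these shifts was not tested beyond the filter itself. Low reads limit the precision, and no library has a replicate. No paired analysis was possible because each group has 1 library and the labels carry no replicate numbers.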

Other observations

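Outside the protein-coding biotype, 1250 genes had a mean of at least 20 reads. Among them 13 were more than 2-fold higher in oe-circ and 27 lower, with a median log2 fold change of 0.0049. They include 4 immunoglobulin constant genes, which are annotated under a biotype of their own although they encode protein. The genes named here were chosen after their values were seen. The gene Gm10076, annotated as a lincRNA and a near-identical copy of Rpl41, had 547 reads in the oe-circ library and 71 in the oe-pep library, and both genes together had 3044 reads in the oe-circ library and 5242 in the oe-pep library. Likewise the processed pseudogene Gm10241, a copy of Sumo2, had 521 reads in the oe-circ library and 120 in the oe-pep library. The immunoglobulin gene Ighg2b had 45 reads in the oe-circ library and 8 in the oe-pep library. On the lower side Gm24270, annotated as a miRNA gene, had 101 reads in the oe-circ library and 287 in the oe-pep library, and Abhd11os had 19 reads in the oe-circ library and 55 in the oe-pep library. Of 313 processed pseudogenes 8 were higher and 6 lower.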
